A study of Mus musculus with 8 samples.

Results

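Bile duct surface and epithelial markers other than keratins were examined in clonal mouse liver cancer lines. The set was given as 9 genes, namely Epcam, Prom1, Cd24a, Bicc1, Cftr, Pkhd1, Muc1, Sctr and Ggt1, and was chosen by name as markers of cholangiocytes and ductal epithelium. A gene was measured where a probe set of the array named it alone, which held for 8 of the 9 genes, out of 22180 genes measured in this way. No probe set used here names Ggt1, so it was not analysed here. All lines are of the C57BL/6 strain, carry the oncogenes c-Myc and NrasG12V from the pCaMIN vector, are single clones and were grown untreated in serum-containing medium. The 4 ICC lines (intrahepatic cholangiocarcinoma, a liver cancer with bile duct features) came from tumours raised by focal electroporation of the liver, with ICC9 and ICC10 labelled female and ICC2.7 and ICC2.9 labelled male. The 4 HCC lines (hepatocellular carcinoma, a liver cancer with hepatocyte features) came from tumours raised by hydrodynamic injection into the tail vein, with HCC1 and HCC4 labelled male and HCC2.1 and HCC2.4 labelled female. Tumour type and delivery route therefore cannot be told apart, and the series title names hepatocytes as the transformed cells of both types. Each line was hybridised once, and values are log2 signals after RMA, a method that corrects background, normalises arrays and summarises the probes of each probe set.

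Cholangiocytes line the bile ducts and modify bile by secreting chloride and bicarbonate. Secretin acts on its receptor at the basolateral membrane, raises cyclic AMP and thereby opens the apical chloride channel CFTR. Their surface also carries adhesion molecules and mucin-type glycoproteins, and a single primary cilium senses flow. Several of the genes measured here are used as markers of ducts, of ductular reactions and of liver progenitor cells, while mature hepatocytes show little of most of them.

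Median log2 signals per array lay between 5.02 and 5.09. The 8 columns of values span only 7 directions, so that the signal of 1 line is nearly fixed by those of the other 7, with ICC9 carrying the largest weight, and the arrays hold less independent variation than their number. The sex labels were borne out by Xist, at 11.26 to 11.59 in female-labelled and 4.02 to 4.64 in male-labelled lines, and by the Y-linked gene Uty, at 3.28 to 3.51 and 7.98 to 8.29. The 10 hepatocyte markers checked had mean signals of 4.51 to 4.53 in ICC and 4.60 to 4.77 in HCC lines, and albumin lay between 4.12 and 4.64 in the 8 lines. Other hepatocyte genes did vary. Hnf4a, a hepatocyte transcription factor, stood at 7.26 (HCC2.1) and 7.06 (HCC2.4) against 5.32 to 5.92 in the other lines, and Asgr1, the asialoglycoprotein receptor gene, was lowest in ICC9 and ICC10 (4.31 and 4.27) and highest in HCC1 (5.82). Neither passed over all 8 lines (limma, adjusted p = 0.418 for Hnf4a and 0.303 for Asgr1). Probe sets differ in affinity, so a level was compared between lines and not between genes. Signal over background could not be assessed. As a guide, 3 Y-linked genes read 3.28 to 4.37 in female-labelled lines. All signals of Prom1 (2.84 to 3.84) and Cftr (2.88 to 3.75) lay within or below that range. Those of Pkhd1 lay within it too, apart from HCC2.1 (4.53) and HCC2.4 (4.38). Of the 8 genes, Cd24a and Bicc1 had a mean above that of the median gene (5.66) and the other 6 a mean below it. The labels do not say which lines share an animal, so p-values measure the spread between these lines.

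None of the 8 measured genes differed between ICC and HCC lines over all 22180 genes (limma, adjusted p from 0.294 to 0.939), where 58 genes (0.261%) passed. At an unadjusted p under 0.05 stood 3 of the 8, Prom1, Cd24a and Cftr, against 14.1% of all genes. Differences were small and 7 of 8 were negative, that is lower in ICC, with a median of -0.26 log2 units against 0.00 over all genes. A negative sign was found in 49.6% of all genes. In each of the 8 genes the signals of the types overlapped, as in most genes, since 8.63% of all genes kept the types apart. With labelled sex in the model, where 1.93% of genes passed, Cd24a was lower in ICC (-0.68, adjusted p = 0.0118, limma). In the 4 female-labelled lines alone, where 3.14% of genes passed, limma called Prom1 (-0.66), Cd24a (-0.76) and Bicc1 (-0.75) lower in ICC, with adjusted p from 0.0315 to 0.0428. Prom1 signals reached only 3.84, within the 3.28 to 4.37 that Y-linked genes showed in female-labelled lines. Of the 10 hepatocyte markers checked, limma called 2 in the female-labelled lines, both lower in ICC. These were Hnf4a (-1.52, adjusted p = 0.0372) and Asgr1 (-0.79, adjusted p = 0.031). The others were not called and ran from -0.33 (Serpina1a) to 0.30 (Cyp2e1), with albumin at -0.05. The part of Hnf4a and Asgr1 in the result was not tested. In the 4 male-labelled lines, where 0.902% of genes passed, limma called 0 of the 8, with Prom1 at -0.24 (adjusted p = 0.521), Cd24a at -0.61 (0.145) and Bicc1 at -0.26 (0.497). At an unadjusted p under 0.05 stood 3 of the 8 in that fit, Epcam, Cd24a and Cftr. The share of all genes at that level was not counted for this fit, so nothing about the set follows from it. Both of these fits set 2 ICC lines against 2 HCC lines. Type cannot be told apart there from any animal or tumour that the 2 lines of a type may share. With lines of 1 type and sex averaged, 0 of 22180 genes passed between types (limma).

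Female- and male-labelled lines were compared next. With tumour type in the model, Bicc1 and Cd24a, 2 of the 8, were higher in female-labelled lines (limma), against 2.94% of all genes called in either direction and 1.48% called higher. All 8 differences were positive, with a median of 0.33 log2 units against 0.01 over all genes, where 51.3% were positive. In 4 of the 8, Bicc1, Cd24a, Muc1 and Pkhd1, every female-labelled line lay above every male-labelled line, which held for 4.41% of all genes. Signals of Pkhd1 lay within the guide range of the Y-linked genes or little above it, at up to 4.53. At an unadjusted p under 0.05 stood 5 of the 8, against 17.5% of all genes, and 8.76% of all genes kept the sexes apart in either direction. Bicc1 and Cd24a also passed with the missing direction in the model (1.26% of all genes) and with lines of 1 type and sex as a random block (1.51%). Both calls were lost when the lines of 1 type and sex were averaged into 1 value (adjusted p = 0.114 for Bicc1 and 0.331 for Cd24a), which left the log2 differences at 1.83 and 0.76 and 1 residual degree of freedom, and in which 0.0271% of genes passed. Sex of the line and any animal or tumour that lines of 1 type and sex may share cannot be told apart. The panels of levels by line show this arrangement for all 8 genes.

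**Figure D1:**
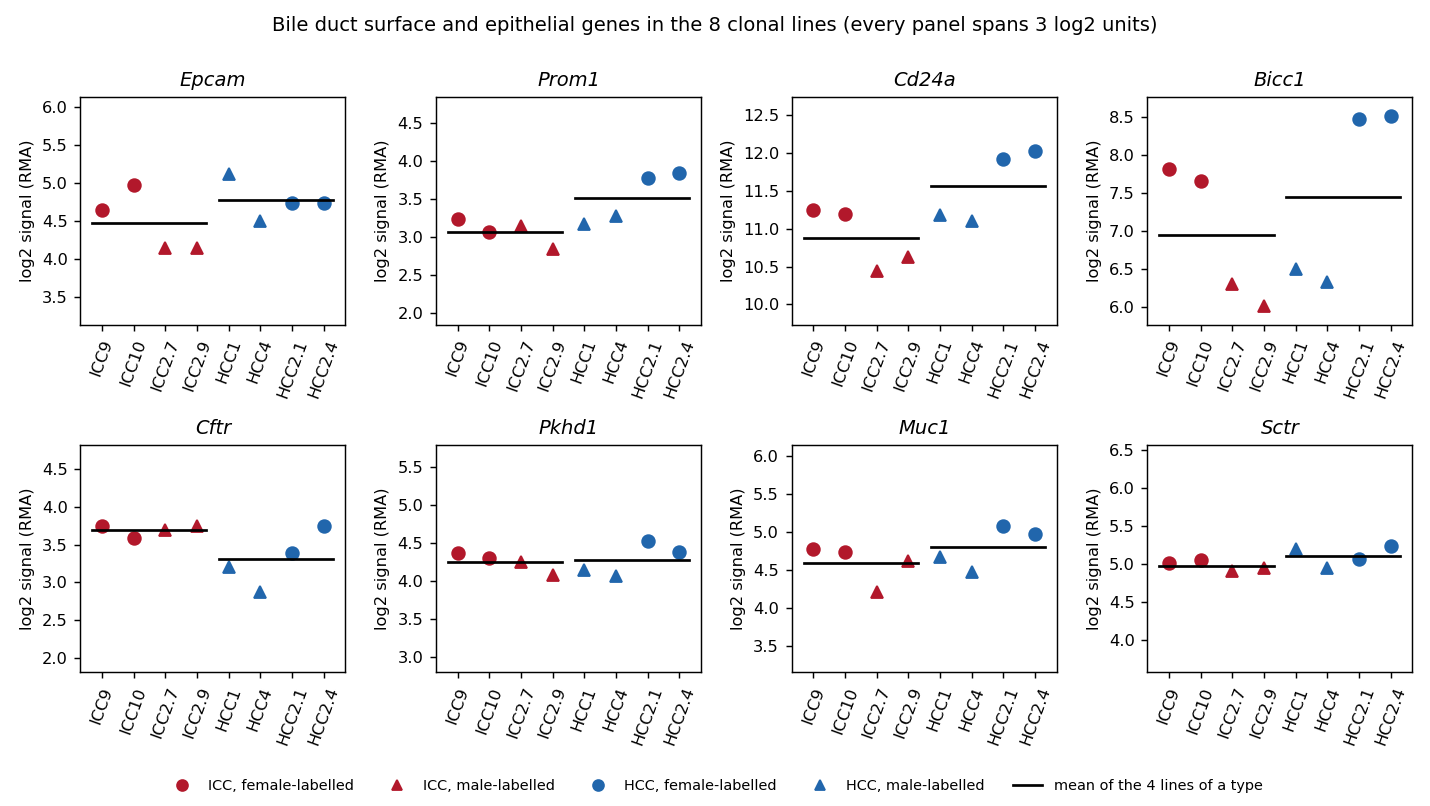
Log2 signal (vertical axis) of each measured gene in the 8 lines (horizontal axis), with ICC in red, HCC in blue, female-labelled lines as circles, male-labelled lines as triangles and the mean of the 4 lines of a type as a black bar; every panel spans the same height. Bicc1 shows female-labelled lines at 7.66 to 8.51 above male-labelled lines at 6.01 to 6.50, while Sctr stays between 4.91 and 5.23.

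Epcam encodes a cell adhesion protein of simple epithelia that marks cholangiocytes and liver progenitors and is not made by mature hepatocytes. It measured 4.64 in ICC9, 4.97 in ICC10, 4.14 in ICC2.7 and 4.15 in ICC2.9. HCC signals were 5.12 in HCC1, 4.50 in HCC4, 4.74 in HCC2.1 and 4.73 in HCC2.4. The types overlapped, and the lowest signals were those of the male-labelled ICC lines while HCC1 was highest. The difference of ICC from HCC was -0.30 (SE 0.21, adjusted p = 0.562, limma), with a 95% interval from -0.77 to 0.18. Among ICC lines the female-labelled pair exceeded the male-labelled pair by 0.66, whereas among HCC lines that difference was -0.08. The test of this inequality gave 0.74 (SE 0.29, adjusted p = 0.221) and did not pass.

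Cd24a encodes a small, heavily glycosylated protein held at the membrane by a lipid anchor and is used to isolate biliary and progenitor cells. It measured 11.24 in ICC9, 11.19 in ICC10, 10.44 in ICC2.7 and 10.63 in ICC2.9. Its HCC signals were 11.18 in HCC1, 11.10 in HCC4, 11.92 in HCC2.1 and 12.02 in HCC2.4. The female-labelled HCC lines were highest and the male-labelled ICC lines lowest, with the other 4 lines between 11.10 and 11.24, too close to be ordered. Female-labelled lines averaged 11.59 ± 0.44 and male-labelled lines 10.84 ± 0.36 (SD, n = 4 each), a 1.69-fold difference (log2 difference 0.76, SE 0.08, adjusted p = 0.00461, limma). The sexes came close, since ICC10 and HCC1 differed by only the last decimal given. ICC lines averaged 10.88 ± 0.40 and HCC lines 11.56 ± 0.48 (log2 difference -0.68, SE 0.27, adjusted p = 0.303), with an interval from -1.28 to -0.08.

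A second probe set names Cd24a and showed the same arrangement of lines. It measured 8.87 in ICC9, 9.07 in ICC10, 7.52 in ICC2.7 and 7.94 in ICC2.9, against 9.07 in HCC1, 9.03 in HCC4, 9.72 in HCC2.1 and 9.78 in HCC2.4. The female-labelled HCC lines were again the highest pair and the male-labelled ICC lines the lowest, but female- and male-labelled lines overlapped. With all probe sets tested singly, its female minus male difference was 0.97 (SE 0.14, adjusted p = 0.0141, limma) and its ICC minus HCC difference -1.05 (SE 0.35, adjusted p = 0.245).

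Prom1 encodes prominin, a membrane protein of apical protrusions and cilia that marks ductal and progenitor cells. It measured 3.23 in ICC9, 3.07 in ICC10, 3.14 in ICC2.7 and 2.84 in ICC2.9. In HCC lines it measured 3.17 in HCC1, 3.28 in HCC4, 3.78 in HCC2.1 and 3.84 in HCC2.4. Only the female-labelled HCC pair stood clear of the other lines, which lay between 2.84 and 3.28. The ICC minus HCC difference was -0.45 (SE 0.17, adjusted p = 0.294) and the female minus male difference 0.37 (SE 0.12, adjusted p = 0.158, limma), so neither passed.

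Muc1 encodes a transmembrane mucin of the apical surface of ductal epithelia. It measured 4.77 in ICC9, 4.73 in ICC10, 4.21 in ICC2.7 and 4.61 in ICC2.9. Signals in HCC lines were 4.66 in HCC1, 4.47 in HCC4, 5.08 in HCC2.1 and 4.97 in HCC2.4. Female-labelled lines did not overlap with male-labelled ones, although ICC10 and HCC1 lay close. The female minus male difference of 0.40 (SE 0.11, adjusted p = 0.0999, limma) missed the threshold, and the ICC minus HCC difference was -0.22 (SE 0.17, adjusted p = 0.613).

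Bicc1 encodes an RNA-binding protein whose loss causes cysts in the kidney and dilated bile ducts in mice. It measured 7.82 in ICC9, 7.66 in ICC10, 6.30 in ICC2.7 and 6.01 in ICC2.9. In HCC lines it measured 6.50 in HCC1, 6.32 in HCC4, 8.47 in HCC2.1 and 8.51 in HCC2.4. The order of the levels was the female-labelled HCC pair, then the female-labelled ICC pair, then the 4 male-labelled lines, in which HCC4 and ICC2.7 lay next to each other and the pairs are too close to be ordered. Female-labelled lines averaged 8.12 ± 0.44 and male-labelled lines 6.28 ± 0.20 (SD, n = 4 each), a 3.56-fold difference (log2 difference 1.83, SE 0.13, adjusted p = 0.000693, limma). The difference was 1.59 within ICC and 2.08 within HCC lines, and the test of that inequality did not pass (log2 difference -0.50, SE 0.19, adjusted p = 0.214). The same spread makes the comparison of types imprecise, at -0.50 (SE 0.63, adjusted p = 0.766) with an interval from -1.93 to 0.92.

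Pkhd1 encodes fibrocystin, a large membrane protein of the primary cilium that is mutated in recessive polycystic kidney and liver disease. It measured 4.37 in ICC9, 4.31 in ICC10, 4.25 in ICC2.7 and 4.08 in ICC2.9. Among HCC lines it was 4.15 in HCC1, 4.07 in HCC4, 4.53 in HCC2.1 and 4.38 in HCC2.4. The whole range over the 8 lines was 0.46 log2 units, and female-labelled lines lay above male-labelled ones without overlap. Apart from HCC2.1 and HCC2.4, all signals lay within the 3.28 to 4.37 that Y-linked genes showed in female-labelled lines. The female minus male difference was 0.26 (SE 0.08, adjusted p = 0.166) and the ICC minus HCC difference -0.03 (SE 0.12, adjusted p = 0.939, limma), with an interval from -0.31 to 0.25. The sign of the type difference was not stable, since it was 0.03 without ICC2.9 and 0.05 without HCC2.1.

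**Figure D2:**
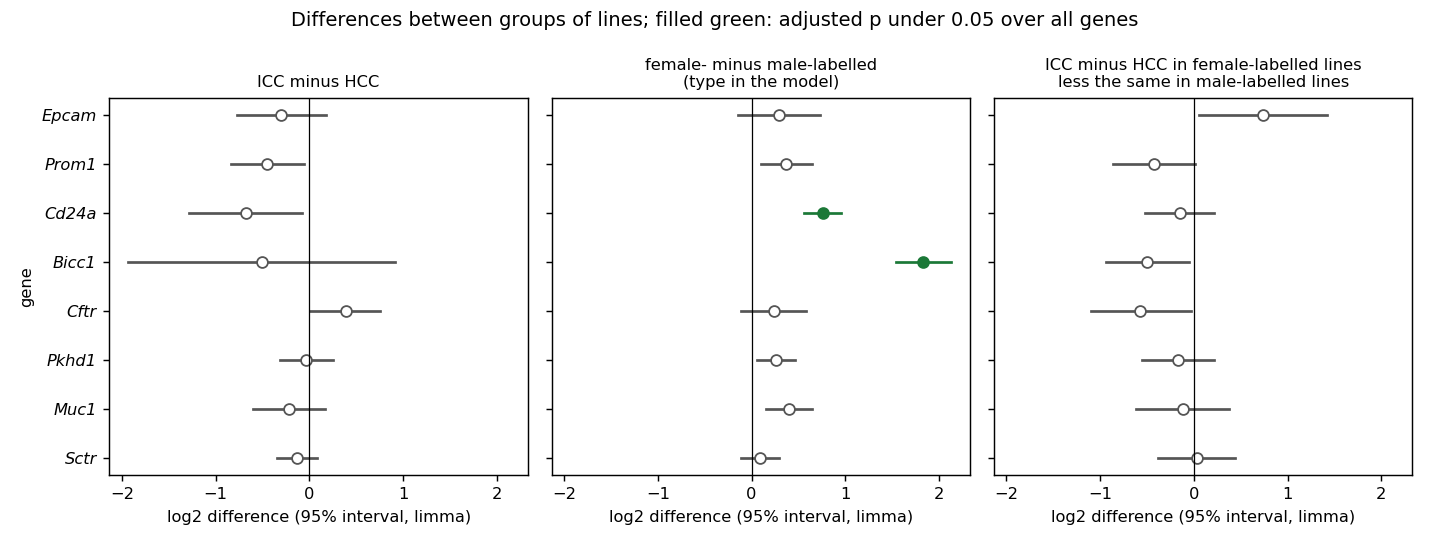
Log2 differences (horizontal axis) with 95% intervals from limma for the 8 genes (vertical axis) between types, between labelled sexes and for the interaction of both; filled green points passed an adjusted p of 0.05 over all genes. Only Cd24a (0.76) and Bicc1 (1.83) are filled, both in the panel of labelled sex, and the Bicc1 interval between types runs from -1.93 to 0.92.

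Upstream sequences are shown for Muc1, whose female-labelled lines lay above the male-labelled ones, and for Prom1 and Epcam, whose lines did not. These are the 3 of 6 windows of measured genes that held a motif match. The window of Pkhd1, whose female-labelled lines also lay above the male-labelled ones, held none and is not shown. Of the 9 genes, 6 have an entry in the RefSeq promoter table of build GRCm38.p6, and Cd24a, Bicc1 and Sctr do not. Each sequence is the 250 bases before an annotated start site, 5′ to 3′ on the strand of the gene, and lies at chr3:89228806-89229055 (plus strand) for Muc1, chr5:44101737-44101986 (minus strand, the more upstream of 2 entries) for Prom1 and chr17:87635729-87635978 (plus strand) for Epcam. Capitals mark matches, on either strand, to the E-box CACGTG bound by MYC and MAX, and to the E2-box CACCTG bound by SNAIL and ZEB repressors; none of the marked matches overlap.
Muc1: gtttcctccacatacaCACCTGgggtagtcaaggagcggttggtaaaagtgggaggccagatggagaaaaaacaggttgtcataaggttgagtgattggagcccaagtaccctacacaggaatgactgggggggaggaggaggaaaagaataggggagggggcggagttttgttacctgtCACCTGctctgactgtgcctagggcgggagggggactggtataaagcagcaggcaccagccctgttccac
Prom1: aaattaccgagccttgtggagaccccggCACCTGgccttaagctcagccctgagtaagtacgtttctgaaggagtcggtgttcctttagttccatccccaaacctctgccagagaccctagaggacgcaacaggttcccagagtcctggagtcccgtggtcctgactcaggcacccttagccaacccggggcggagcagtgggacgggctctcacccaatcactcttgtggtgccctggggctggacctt
Epcam: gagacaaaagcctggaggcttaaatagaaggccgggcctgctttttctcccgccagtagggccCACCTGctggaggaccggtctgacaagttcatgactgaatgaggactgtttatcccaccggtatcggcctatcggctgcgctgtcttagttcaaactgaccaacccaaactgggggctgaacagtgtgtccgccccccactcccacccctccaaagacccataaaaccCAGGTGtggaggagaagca
The E2-box occurs at 2 places in Epcam and in Muc1 and at 1 place in the Prom1 sequence shown, and the windows of Cftr and Pkhd1 and the second window of Prom1 hold none. It was found in 3 of 6 windows of measured genes, and in 6 of 10 with those of Ggt1, against 17.2% of the 32851 windows of this length in the table. Windows of 1 gene are not independent. No window of the 6 genes holds the E-box CACGTG, which 6.02% of all windows do. A match is a description of the letters and shows no binding.

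Cftr encodes the apical chloride channel opened by cyclic AMP. It measured 3.75 in ICC9, 3.59 in ICC10, 3.69 in ICC2.7 and 3.74 in ICC2.9. In HCC lines it measured 3.21 in HCC1, 2.88 in HCC4, 3.39 in HCC2.1 and 3.74 in HCC2.4. It was the only measured gene of the set with a positive ICC minus HCC difference (0.39, SE 0.17, adjusted p = 0.338, limma), and ICC lines averaged 3.69 ± 0.07 against 3.31 ± 0.36 in HCC lines (SD, n = 4 each). HCC2.4 reached the ICC range, so the types overlapped, and HCC4 was lowest.

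Sctr encodes the secretin receptor, which in the liver is found on large cholangiocytes. It measured 5.01 in ICC9, 5.05 in ICC10, 4.91 in ICC2.7 and 4.94 in ICC2.9. In HCC lines it measured 5.20 in HCC1, 4.94 in HCC4, 5.06 in HCC2.1 and 5.23 in HCC2.4. These 8 values span 0.32 log2 units, the narrowest range of the set. The ICC minus HCC difference was -0.13 (SE 0.09, adjusted p = 0.562) and the female minus male difference 0.09 (SE 0.09, adjusted p = 0.661, limma). The interval between types ran from -0.34 to 0.08.

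The interaction of type and sex asked whether the type difference was the same in both sexes, and it is also the contrast of lines whose names start with "ICC2." or "HCC2." with the others. Limma called 0 genes of the table (0% of 22180; 4467 had an unadjusted p under 0.05, 20.1%) and so none of the set, of which 3 had an unadjusted p under 0.05, with adjusted p from 0.214 for Bicc1 to 0.942 for Sctr. With the missing direction in the model it called 255 genes (1.15%) and again 0 of the 8. In 5 of the 8 genes, Prom1, Cd24a, Bicc1, Pkhd1 and Muc1, the pair HCC2.1 and HCC2.4 lay above the other 6 lines, as in 9.14% of all genes. Pkhd1 counted only through HCC2.4 at 4.38 against ICC9 at 4.37. In 3 of the 8, Epcam, Cd24a and Bicc1, the pair ICC2.7 and ICC2.9 lay below the other 6, as in 10.4%. Bicc1 counted only through ICC2.7 at 6.30 against HCC4 at 6.32, too close to be ordered. Cd24a and Bicc1 met both descriptions, as did 1.97% of all genes.

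Genes with the most similar profile were sought for the 3 genes whose lines differed by at least 1 log2 unit (3 of 8, against 16.3% of all genes), among 3189 other named genes with such a range. Likeness was the mean absolute log2 difference over the 8 lines after each gene was centred on its own mean, and is given as a description with no test. Nearest to Cd24a were Zfp36l1 (0.0781), which encodes a protein that promotes decay of mRNAs with AU-rich elements, Pard6b (0.0862), a component of the apical polarity complex, and Sgsm3 (0.09). Nearest to Bicc1 were Crybg1 (0.17), the cornified envelope gene Sprr1b (0.189) and Tll1 (0.214), which encodes a tolloid-like metalloprotease. Nearest to Prom1 were the potassium channel gene Kcnk5 (0.0987), the protocadherin gene Pcdh7 (0.108) and Shroom1 (0.11). Pard6b measured 5.81 in ICC2.7 and 7.32 in HCC2.4, the same lines that bound the range of Cd24a. Crybg1 measured 4.84 to 5.37 in male-labelled and 6.50 to 7.13 in female-labelled lines.

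**Figure D3:**
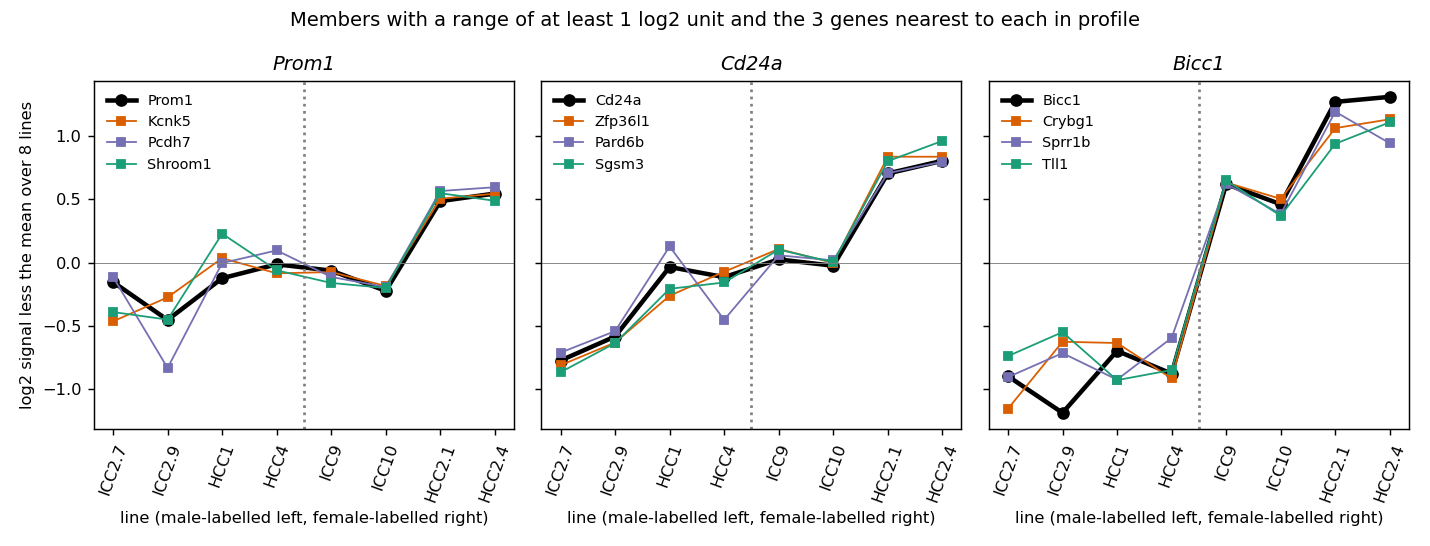
Log2 signal less the mean over the 8 lines (vertical axis) for Prom1, Cd24a and Bicc1 (black) and the 3 genes nearest to each (colours) in every line (horizontal axis), with male-labelled lines left and female-labelled lines right of the dotted line. Bicc1 and its neighbours step up between the sexes, whereas Prom1 is raised only in HCC2.1 and HCC2.4. All Prom1 signals lie within or below the range of Y-linked genes in female-labelled lines.

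Related genes were counted in lists that complement the set. Among 9 ductal factors and keratins measured, limma called 0 between types, against 0.261% of all genes, and 0 stood at an unadjusted p under 0.05, against 14.1%, and the median ICC minus HCC difference was -0.10 against 0.00 over all genes. The smallest p were those of Krt23 (-0.31, SE 0.15, adjusted p = 0.399) and of the progenitor factor Sox4 (-0.40, SE 0.24, adjusted p = 0.498). Between labelled sexes 2 of the 9 rose in female-labelled lines, against 1.48% of all genes, Krt19, the keratin most used to stain bile ducts, and Onecut2, a factor of biliary development. Krt19 measured 8.97 in ICC9, 9.26 in ICC10, 8.19 in HCC2.1 and 7.76 in HCC2.4, against 6.89 in ICC2.7, 6.39 in ICC2.9, 6.55 in HCC1 and 5.60 in HCC4 (log2 difference 2.19, SE 0.24, adjusted p = 0.00483). Onecut2 differed by 1.47 (SE 0.21, adjusted p = 0.0116), a call lost without ICC9 (0.0572). Its lowest signals were 7.43 in ICC2.7 and 7.01 in ICC2.9, and the other lines lay between 8.37 and 9.62. The genes named here and below for a difference between sexes were chosen after their values were seen.

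Surface partners of EPCAM and CD24, 11 measured, had 0 called between types and 2 at an unadjusted p under 0.05, against 14.1% of all genes, Ncam1 (0.69, SE 0.27, adjusted p = 0.304) and the claudin gene Cldn7 (-0.39, SE 0.16, adjusted p = 0.314). Their median difference was -0.17. Between sexes 1 of the 11 rose in female-labelled lines, against 1.48% of all genes, Spint2, an inhibitor of membrane serine proteases (1.56, SE 0.30, adjusted p = 0.0363). Spint2 measured 7.28 in ICC2.7 and 7.38 in ICC2.9 and from 8.98 to 10.18 in the other 6 lines, so the sexes overlapped. Its call was lost without any 1 line other than HCC1 (adjusted p from 0.054 to 0.13), with the missing direction (0.076) and with a random block (0.0606).

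Among 12 genes of secretin response and bicarbonate secretion 0 were called between types and 1 had an unadjusted p under 0.05, against 14.1% of all genes, Itpr3, a calcium release channel (-0.28, SE 0.11, adjusted p = 0.305). The water channel gene Aqp1 followed (0.36, SE 0.19, adjusted p = 0.44). Between sexes 1 of the 12 rose in female-labelled lines, against 1.48% of all genes, the calcium-activated chloride channel gene Ano1 (0.61, SE 0.11, adjusted p = 0.0251), and 1 fell, against 1.47%, the ATP receptor gene P2ry2 (-0.80, SE 0.11, adjusted p = 0.00972). P2ry2 measured 5.76 to 6.06 in female-labelled and 6.56 to 6.93 in male-labelled lines, the opposite order to Bicc1, and its call was lost without ICC9 (0.0601). The Ano1 call was lost without ICC9, ICC10, ICC2.7, ICC2.9, HCC2.1 or HCC2.4 (adjusted p from 0.0516 to 0.115), with the missing direction (0.0741) and with a random block (0.0599). All calls of these lists between sexes were lost with lines averaged.

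The remaining 3 lists held 0 called genes in either comparison, against 0.261% and 2.94% of all genes. Of 13 genes of the cilium and of polycystic disease, 2 had an unadjusted p under 0.05 between types, against 14.1% of all genes. The first was Ift88, needed for transport in the cilium (0.32, SE 0.12, adjusted p = 0.294). The other was Cys1, which encodes the cilium protein cystin (0.30, SE 0.13, adjusted p = 0.346). Of 8 other mucins 1 lay under that unadjusted p, against the same 14.1%, Muc15 (-0.37, SE 0.16, adjusted p = 0.339). Muc2, a gel-forming mucin of the gut, differed by 0.15 (SE 0.12, adjusted p = 0.621). Among 10 genes of the gamma-glutamyl cycle, in which GGT1 acts outside the cell, 1 lay under that unadjusted p, against the same 14.1%. It was Gclc, a subunit of the enzyme that starts glutathione synthesis (0.46, SE 0.12, adjusted p = 0.146). Ggt5, a paralogue of Ggt1, differed by -0.28 (SE 0.14, adjusted p = 0.394). Median differences between types in these 3 lists were 0.08, -0.06 and 0.06.

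**Figure D4:**
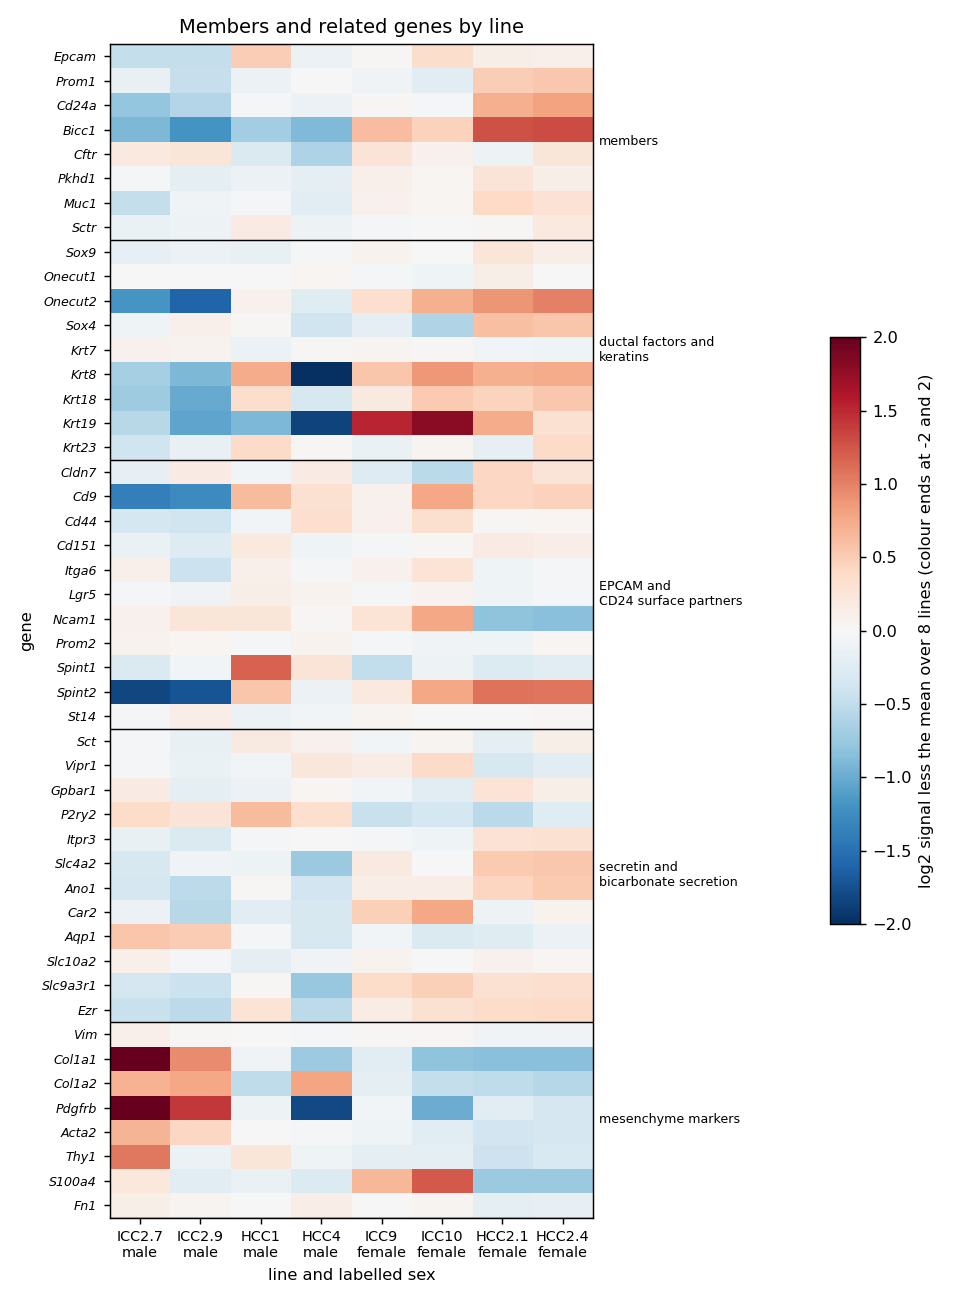
Log2 signal less the mean over the 8 lines (colour, ending at -2 and 2) for the 8 measured genes, 3 related lists and the mesenchymal markers (rows) in each line (columns, male-labelled left). Krt19, Bicc1 and Onecut2 are blue in ICC2.7 and ICC2.9 and red in ICC9, ICC10, HCC2.1 and HCC2.4. Of the mesenchymal markers, Col1a1 lies above its mean only in ICC2.7 and ICC2.9, whereas S100a4 is highest in ICC10 and ICC9.

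Markers of other cell types moved with the lines as well. The 8 mesenchymal markers had mean signals of 9.68 in ICC2.7 and 9.15 in ICC2.9, where Bicc1 and Cd24a were low. The means were 8.33 in HCC2.1 and 8.32 in HCC2.4, where Bicc1 and Cd24a were high. Bicc1 was also low in HCC1 (6.50) and HCC4 (6.32), where the mesenchymal means were 8.67 and 8.49. In ICC9 and ICC10 these means were 8.74 and 8.57. Between sexes 1 of the 8 fell in female-labelled lines, against 1.47% of all genes, Acta2, the smooth muscle actin of myofibroblasts (-0.52, SE 0.11, adjusted p = 0.046), a call lost without any 1 line other than HCC4 (adjusted p from 0.0633 to 0.201), under both other scalings, with the missing direction and with a random block (0.0591 to 0.122). The part of these markers in the results for the set was not tested. Leukocyte markers had means of 4.78 to 5.36 and endothelial markers of 4.45 to 4.72, with Ptprc, the pan-leukocyte surface gene, between 3.40 and 3.99. Cd68, a lysosomal gene of macrophages, was lowest in ICC2.7 (7.31) and ICC2.9 (7.98), where Bicc1 and Cd24a were low. In the other lines it lay between 9.01 and 10.21. Its highest signals were those of HCC1 (10.21) and HCC4 (10.15), where Bicc1 was low as well. The other leukocyte markers did not share this order. The lowest line was HCC1 for Ptprc (3.40), HCC2.4 for Itgam (3.66) and ICC9 for Cd3e (4.32). Adgre1 and Csf1r were lowest in ICC2.9 (3.40 and 5.13) but stood at 3.84 and 5.51 in ICC2.7. The Cd68 difference passed in the male-labelled lines alone (ICC minus HCC -2.54, adjusted p = 0.025, limma) and not over all 8 lines (-1.13, SE 0.55, adjusted p = 0.399). Hnf4a was high in HCC2.1 and HCC2.4, as Cd24a, Bicc1 and Prom1 were. The part of these genes in the results was likewise not tested. In such bulk RNA, fewer cells with a transcript and less of it in each cell cannot be told apart.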

How the data were processed

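Log2 signals per probe set were deposited for 8 lines, 1 Affymetrix array each. The deposited log2 values were made by the authors with RMA and the oligo package, per the submitters' processing notes, and their versions were not given in the sources used. Of 39993 probe sets, 23521 name exactly 1 gene in the platform annotation, 1814 name several and 14658 name none here. Where several such probe sets name a gene, the one of highest mean level was kept, which gave 22180 genes. No filter on low values was applied in the main fits. Linear models with moderated variances (limma 3.58.1, run in R 4.3.3) were fitted to all genes, with two-sided p-values adjusted by Benjamini-Hochberg and called under 0.05: ICC against HCC with no covariate, labelled sex with type in the model, and the interaction with both. An SE is limma's moderated standard error, intervals use its moderated degrees of freedom, and values after ± are SDs over lines. The fits were tested on simulated data with independent noise in each line. Such data leave out any likeness between lines of 1 type and sex, so they do not test the p-values under it. Alternatives were other moderation, filtering, scaling, probe set choice, models and leaving out each line. Random blocking and averaging in the sex comparison were added after seeing the data. The members, lists and tests were chosen with earlier results of these data known. All members are named, with called list members or the 2 smallest p between types. The number of arrays limits the precision. Motifs were searched on both strands in the RefSeq promoter table, and 1 further motif is not reported here. Python 3.11.15 with pandas 2.3.3 and matplotlib 3.10.9 served for tables and plots.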

Additional observations from a re-analysis of the deposited data

Results flagged for a closer look

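Signals of 110 genes (the 8 measured bile duct genes, all measured list genes and the genes nearest in profile) were examined in the 4 lines of each type. Of these 220 sets of 4 lines, 15 had a line far from the other 3, and chance alone gives about 1 such set in 20. None of the 15 was a set of the 8 bile duct genes.

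HCC4 stood apart in 5 sets. Krt8, a simple epithelial keratin, measured 8.48 there and 11.25 to 11.29 in the other HCC lines. Ezr, which links the membrane to actin, measured 10.90 against 11.71 to 11.81. Pdgfrb, a receptor of mesenchymal cells, measured 6.66 against 8.14 to 8.37, whereas Col1a2, a collagen gene, measured 6.78 against 5.42 to 5.48. Pecam1, an endothelial adhesion gene, measured 6.00 against 5.41 to 5.48. In HCC1 the collagen gene Col1a1 measured 7.18 against 6.41 to 6.52.

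Among ICC lines, ICC2.7 was highest in 3 sets, with Anks6 at 6.48 (others 6.24 to 6.26), Thy1 at 6.62 (5.37 to 5.46) and Vim at 13.58 (13.49 to 13.50). ICC2.9 stood apart for Gclc, a glutathione synthesis gene, at 9.62 (9.24 to 9.29), and for the protocadherin gene Pcdh7 at 8.61 (9.25 to 9.33). ICC9 stood apart for Hnf4a at 5.92 (5.36 to 5.40). It also stood apart by hundredths for Muc13 at 4.81 (4.79 in the others) and Cd3e at 4.32 (4.36 in the others). ICC10 was lowest for Ggct at 5.61 (5.82 to 5.85).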

How the results depend on the processing

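Of 406 values of the 8 genes under alternatives, over the 3 comparisons, 389 kept direction and side of the threshold, 10 changed sign, 5 passed only under the alternative and 2 were lost. Bicc1 and Cd24a were higher in female-labelled lines in all 17 settings and called in 16 of them; averaging the lines of one type and sex kept the differences and left 0 of the 8 called, with 1 residual degree of freedom. Between types the count of called genes of the set was 1 with labelled sex in the model, 1 with sex and the missing direction, and 3 in female-labelled lines only; leaving out each line kept it at 0, against 2 between sexes and 0 for the interaction. Over all genes the count between types was 58, and it became 103 above the median level, 12 with the missing direction, 428 with sex, 119 with sex and the missing direction, 6 with a random block, 0 with averaged lines (limma, 1170 at an unadjusted p under 0.05), 696 in female- and 200 in male-labelled lines, and 2 to 109 without 1 line. Signs turned for values that passed in neither setting: between types Epcam (0.07, female-labelled only), Pkhd1 (0.06, male-labelled only; -0.10 to 0.05 without 1 line) and Sox4 (0.19, male-labelled only); in the interaction Cd24a (0.20, mean of its probe sets), Muc1 (-0.32 to 0.08 without 1 line) and Sctr (-0.04 after quantile normalization, -0.03 after median centring, -0.10 to 0.16 without 1 line). The cause was not tested. Where 1 line is left out of a pair in the interaction, the other is assumed to vary like the rest. No paired analysis was made, since the labels do not pair ICC with HCC lines. Only Bicc1 and Cd24a could be compared among genes above the median level; for the other 6, signal over background is unknown.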
